A study of Caenorhabditis elegans with 12 samples.

Results

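UDP-glucuronosyltransferases are enzymes that attach a sugar from a UDP-sugar donor to small fat-soluble molecules, which makes these easier to dissolve and excrete. In Caenorhabditis elegans they form a large family, the ugt genes. They work alongside the cytochrome P450 enzymes, which oxidise such molecules before conjugation, glutathione S-transferases, which conjugate glutathione in parallel, and export pumps that remove the products.

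The members were chosen by gene name: every gene whose symbol in the array's annotation is ugt- followed by a number and that had at least 1 probe set, a group of probes for 1 transcript, named for that gene alone. This gave 64 genes of 17118 with such a probe set, each measured through its brightest one. All 64 names were also found in RefSeq, where each is a protein-coding gene. Probe sets in the lowest 40% by mean log2 were left out, and 45 of the 64 stood among the 10385 genes tested. The other 19 lay under that level, a signal of 76.0, and are described separately. Of the 45 tested members 11 were measured through a probe set with the suffix s, whose probes may match several related transcripts.

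Total RNA of whole worms in the N2 background was measured on 12 Affymetrix arrays, 3 for each of 4 groups. The worms had been synchronised by bleaching, grown in liquid and collected as L4 larvae, the last larval stage. The groups were atfs-1(tm4525) mutants on spg-7 RNAi, atfs-1(tm4525) mutants on control RNAi, wild type on spg-7 RNAi and wild type on control RNAi. The gene atfs-1 encodes a transcription factor that acts when mitochondria are stressed, spg-7 encodes a mitochondrial protease, and the title of the series names a protective programme under such stress. The mutant is 1 allele, RNAi was fed to the whole animal, and whole worms were measured, so that fewer cells of a type and less RNA per cell cannot be told apart.

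Signals are on the linear scale deposited by the authors, with trimmed means of 500.1 to 500.2 per array, and the number of arrays limits their precision. The signal of spg-7 itself was higher on spg-7 RNAi in both genotypes (17958 ± 8123 and 383 ± 68.5 on spg-7 and control RNAi in the mutant, 14356 ± 7577 and 753 ± 302 in wild type, SD, n = 3 each), so the knockdown cannot be read from this probe set and directions follow the labels. The mutant still gave atfs-1 signals of 555 to 618 on spg-7 RNAi and 386 to 523 on control RNAi. Wild-type control RNAi replicate 1 stood apart in the genes of yolk proteins, with a summed signal of 878 over 5 genes, where the other 11 arrays had 22779.5 to 114017. Wild-type spg-7 RNAi replicate 3 had the lowest summed signal of intestinal markers in its group, within the range of the control arrays. The counts of called members are also given without these 2 arrays, an alternative added after the data had been seen.

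The first comparison asked how the family responded to spg-7 RNAi in each genotype. In the atfs-1 mutant 8 of the 45 tested members rose and 2 fell at a Benjamini-Hochberg adjusted p under 0.05 by limma, against 0.944% of all genes tested that rose and 0.221% that fell (1.17% in all). The 8 that rose were ugt-19, ugt-2, ugt-62, ugt-61, ugt-21, ugt-50, ugt-16 and ugt-1, and the 2 that fell were ugt-26 and ugt-31. The 3 spg-7 RNAi arrays stood above the 3 control arrays for 11 members and below them for 6, against 13.1% and 12.7% of all genes; the 6 are 13.3% of the 45, near that background. With no filter 9 of all 64 members rose and 2 fell, against 0.52% and 0.164% of 17118 genes. The median log2 difference of the 45, spg-7 RNAi minus control RNAi, was 0.39, against -0.016 for all genes tested.

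In wild type 9 of the 45 rose and none fell, against 3.29% and 1.43% of all genes tested (4.73% in all). The 9 were the 8 that rose in the mutant and ugt-28. The spg-7 RNAi arrays stood above the control arrays for 14 members and below them for 3, against 9.99% and 8.48% of all genes. With no filter 10 of all 64 rose and none fell, against 2.03% and 0.701%. The median of the 45 was 0.57, against -0.044 for all genes tested. Without the 2 arrays named above 10 members were called in the mutant and 14 in wild type. The share of all genes called was then also larger, 2.38% and 11.8%. By the median log2 signal of the 45, wild-type spg-7 RNAi replicate 3 was the lowest array of its group (8.50). Wild-type control RNAi replicate 1 was the highest of its group (7.97). Leaving both out raised the wild-type median difference of the 45 from 0.57 to 0.76. The count of 14 is therefore not an independent check of the rises. The 2 responses rest on separate arrays that share 1 estimate of the variance.

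**Figure D1:**
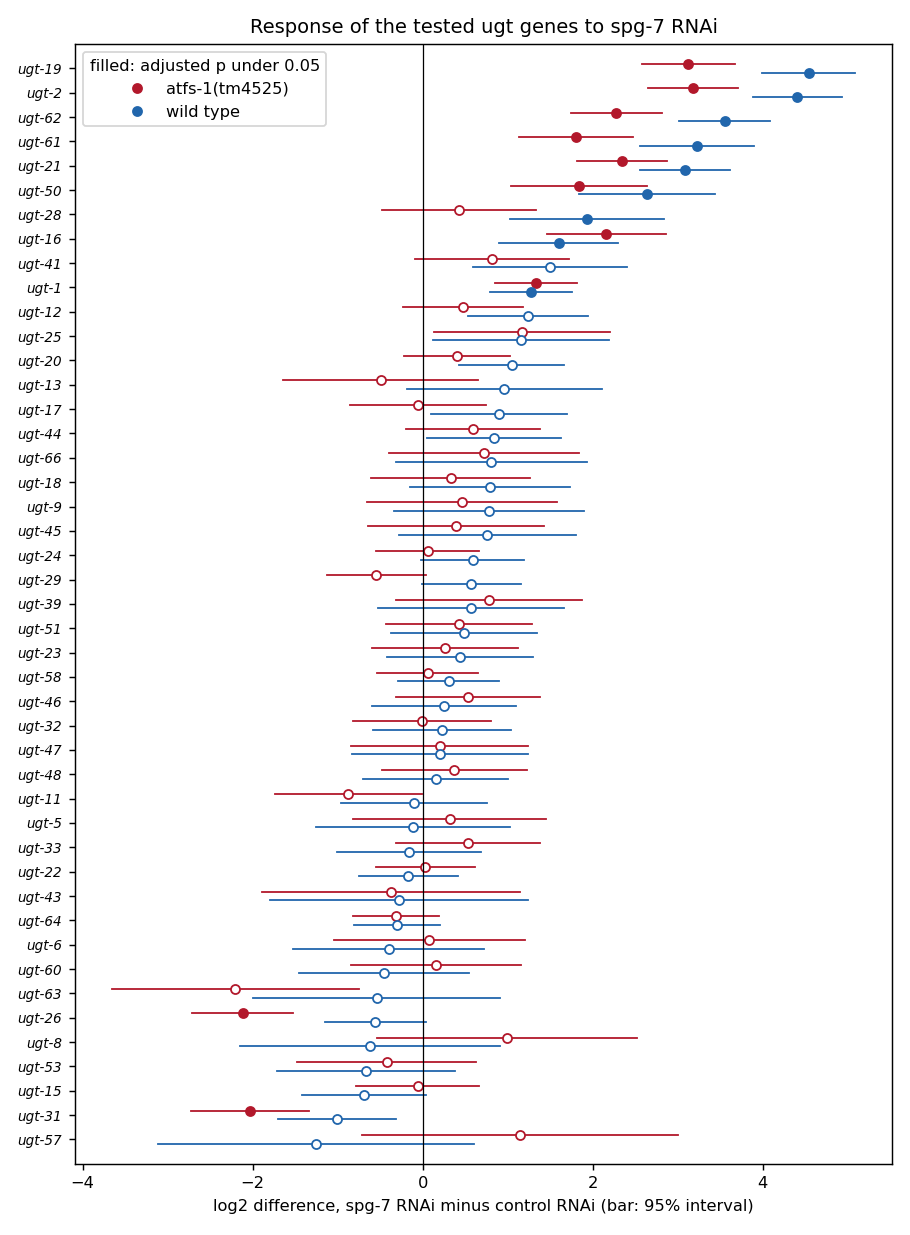
Log2 difference of spg-7 RNAi minus control RNAi for the 45 tested ugt genes, one row per gene in the order of the wild-type value, with the atfs-1(tm4525) mutant in red and wild type in blue; bars are 95% intervals from the model and filled points had an adjusted p under 0.05. Filled points lie at the top of the plot in both colours, 8 genes having both, and 2 red ones lie on the left at ugt-26 and ugt-31.

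Among the 45 tested members the largest rises were those of ugt-19 and ugt-2, in the mutant and in wild type. Mutant signals of ugt-19 were 2604, 3782 and 2103 on spg-7 RNAi and 251, 364 and 342 on control RNAi. In wild type ugt-19 read 3462, 3301 and 3733 on spg-7 RNAi and 165, 143 and 143 on control RNAi. The groups did not overlap in either genotype, and the 3 wild-type spg-7 RNAi arrays lay within the range of the mutant ones. The rise of ugt-19 was 8.73-fold in the mutant (log2 3.13 ± 0.25, SE; limma adjusted p = 1.0e-04) and 23.3-fold in wild type (log2 4.54 ± 0.25; adjusted p = 1.6e-06).

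Mutant signals of ugt-2 were 1925, 3062 and 2171 on spg-7 RNAi and 218, 249 and 318 on control RNAi. In wild type ugt-2 read 3967, 5034 and 4225 on spg-7 RNAi and 194, 234 and 194 on control RNAi. Every spg-7 RNAi array stood above every control array, and the 3 mutant spg-7 RNAi arrays stood below the 3 wild-type ones. The rise of ugt-2 was 9.06-fold in the mutant (log2 3.18 ± 0.24; limma adjusted p = 7.9e-05) and 21.3-fold in wild type (log2 4.41 ± 0.24; adjusted p = 1.6e-06). No call of ugt-19 or ugt-2 was lost without any 1 of the 12 arrays.

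The genes ugt-62, ugt-61 and ugt-21 also rose in both genotypes. Mutant signals of ugt-62 were 9838, 12719 and 8249.6 on spg-7 RNAi and 2152, 2245 and 1864 on control RNAi. In wild type ugt-62 read 15629.5, 16792 and 11445 on spg-7 RNAi and 935, 1502 and 1317 on control RNAi. The control arrays of the mutant stood above those of wild type. The rise of ugt-62 was 4.86-fold in the mutant (log2 2.28 ± 0.24; limma adjusted p = 6.6e-04) and 11.8-fold in wild type (log2 3.56 ± 0.24; adjusted p = 9.4e-06).

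Mutant signals of ugt-61 were 1081, 1642 and 793 on spg-7 RNAi and 313, 338 and 315 on control RNAi. In wild type ugt-61 read 2144, 3409 and 2054 on spg-7 RNAi and 340.4, 226 and 236 on control RNAi. All 3 mutant spg-7 RNAi arrays of ugt-61 were lower than the 3 wild-type ones. The rise of ugt-61 was 3.48-fold in the mutant (limma adjusted p = 0.0149) and 9.40-fold in wild type (adjusted p = 1.7e-04). Its mutant call was lost without any 1 of the mutant arrays other than spg-7 RNAi replicate 3, at adjusted p of 0.0592 to 0.0922.

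Mutant signals of ugt-21 were 1169.8, 1374 and 1022 on spg-7 RNAi and 251, 269 and 187 on control RNAi. In wild type ugt-21 read 1599, 2244 and 1637 on spg-7 RNAi and 207, 194 and 238 on control RNAi. Here too the RNAi groups did not overlap, and the mutant spg-7 RNAi arrays lay below the wild-type ones. The rise of ugt-21 was 5.07-fold in the mutant (log2 2.34 ± 0.24; limma adjusted p = 5.4e-04) and 8.49-fold in wild type (log2 3.09 ± 0.24; adjusted p = 3.1e-05). The calls of ugt-62 and ugt-21 in both genotypes, and of ugt-61 in wild type, were kept without any 1 array.

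**Figure D2:**
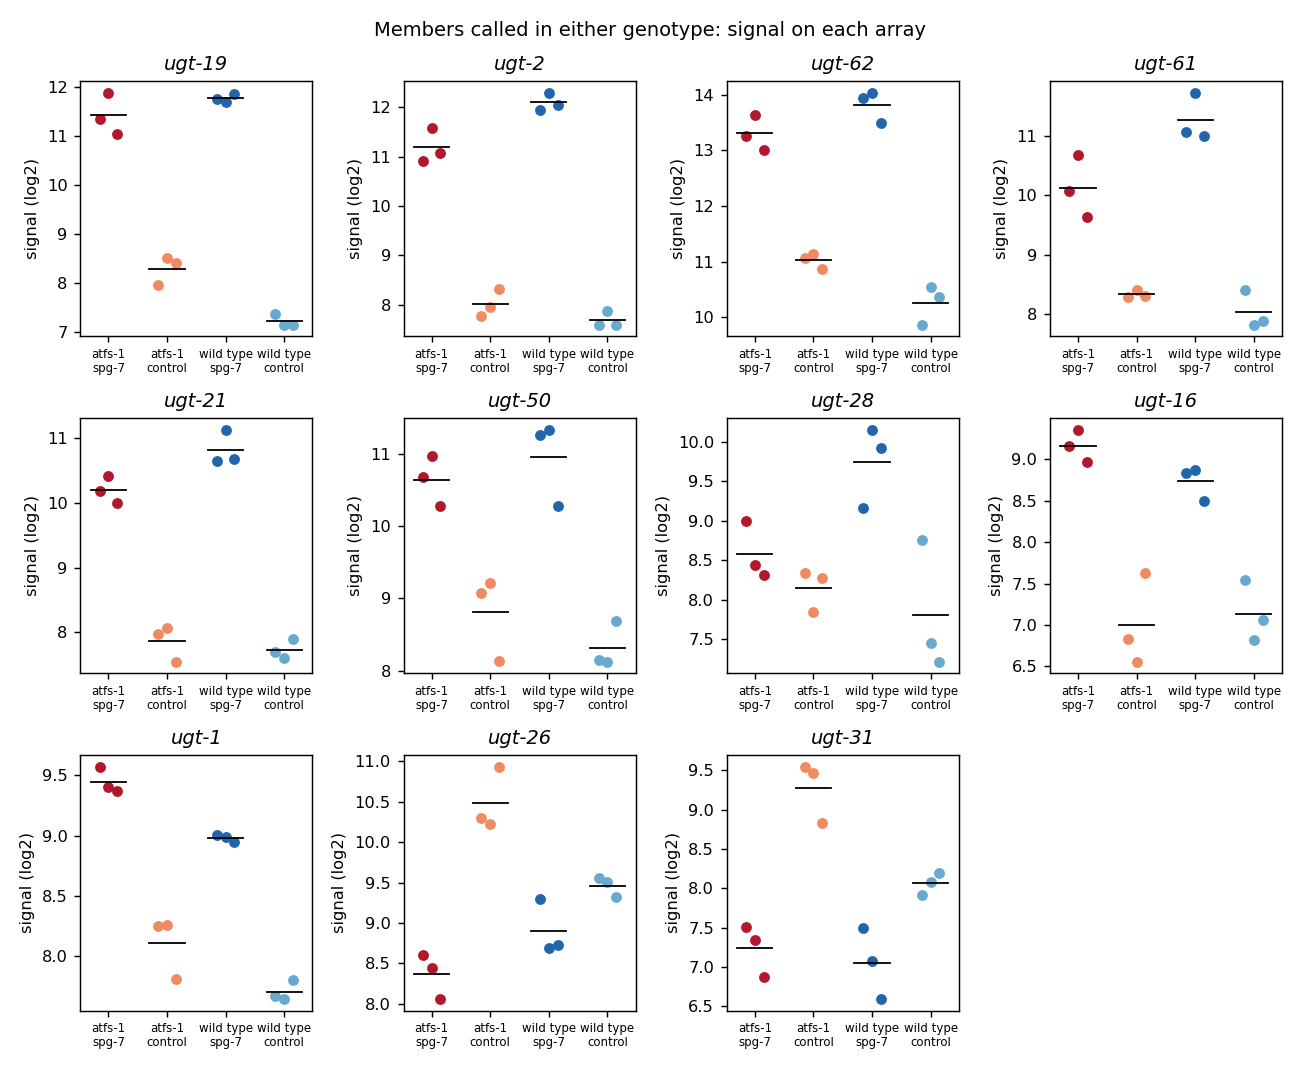
Signal on each array (log2, vertical axis of its own in each panel) for the 11 ugt genes called in either genotype, with 4 groups of 3 arrays along the horizontal axis, points for arrays and a line for the group mean. In 8 panels both spg-7 RNAi groups stand above both control groups, and in the panels of ugt-26 and ugt-31 the mutant on control RNAi stands above the other groups.

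Rises were also called for ugt-50, ugt-16 and ugt-1. Mutant signals of ugt-50 were 1647, 2020.5 and 1241 on spg-7 RNAi and 538, 591 and 282 on control RNAi. In wild type ugt-50 read 2463, 2588 and 1239.5 on spg-7 RNAi and 284, 278 and 412 on control RNAi. Wild-type spg-7 RNAi replicate 3 lay at the level of the lowest mutant spg-7 RNAi array, and mutant control RNAi replicate 3 was the low array of its group. The rise of ugt-50 was 3.59-fold in the mutant (limma adjusted p = 0.0385) and 6.24-fold in wild type (adjusted p = 0.00188). The mutant call was lost without any 1 of the 6 mutant arrays or without wild-type spg-7 RNAi replicate 2, at adjusted p of 0.0524 to 0.224. Other probe sets of ugt-50 gave log2 differences of 1.81 and 2.09 in the mutant and 2.54 and 2.89 in wild type, beside 1.84 and 2.64 for the one used. The 3 members with several probe sets named for them alone were ugt-50, ugt-46 and ugt-48. For ugt-46 the unused probe set gave 0.39 in the mutant and 0.90 in wild type, beside 0.54 and 0.26. For ugt-48 it gave 0.33 and 0.075, beside 0.37 and 0.15. Neither gene was called.

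Mutant signals of ugt-16 were 572, 656 and 501 on spg-7 RNAi and 113, 93.9 and 197 on control RNAi. In wild type ugt-16 read 458, 469 and 361 on spg-7 RNAi and 186, 113 and 133 on control RNAi. The mutant spg-7 RNAi arrays of ugt-16 stood above all wild-type ones. Its rise was 4.47-fold in the mutant (limma adjusted p = 0.00626) and 3.03-fold in wild type (adjusted p = 0.0170). The wild-type call was lost without spg-7 RNAi replicate 2 (adjusted p = 0.0703) or control RNAi replicate 3 (0.0621), and when wild type was fitted on its own (0.113).

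Mutant signals of ugt-1 were 759, 675 and 663 on spg-7 RNAi and 305, 306 and 225 on control RNAi. In wild type ugt-1 read 515, 507 and 493 on spg-7 RNAi and 203, 200.4 and 223 on control RNAi. As with ugt-16, the mutant spg-7 RNAi arrays stood above all wild-type ones. The rise of ugt-1 was 2.53-fold in the mutant (limma adjusted p = 0.0125) and 2.42-fold in wild type (adjusted p = 0.00752). Its mutant call was lost without spg-7 RNAi replicate 1 or 2 (adjusted p = 0.0898 and 0.0685) or control RNAi replicate 3 (0.0737). The wild-type call was lost when wild type was fitted on its own (0.125).

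One member was called in wild type and not in the mutant, and a pair fell in the mutant. Mutant signals of ugt-28 were 513, 346 and 318 on spg-7 RNAi and 323, 229 and 309.9 on control RNAi. In wild type ugt-28 read 569.9, 1137 and 966 on spg-7 RNAi and 432, 175 and 148 on control RNAi. The mutant groups overlapped and the wild-type groups did not, although control RNAi replicate 1 of wild type stood close to the lowest spg-7 RNAi array. The log2 difference of ugt-28 was 0.43 in the mutant (limma adjusted p = 0.739) and the rise in wild type was 3.82-fold (log2 1.93 ± 0.41; adjusted p = 0.0231). The wild-type call was lost without control RNAi replicate 2 (adjusted p = 0.0555) or 3 (0.0938), without spg-7 RNAi replicate 2 (0.0901), and when wild type was fitted on its own (0.156). The difference between the responses, mutant minus wild type, had a 95% interval of -2.78 to -0.22 (log2) and an adjusted p of 0.715.

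Mutant signals of ugt-26 were 389, 347 and 267 on spg-7 RNAi and 1256, 1199 and 1953 on control RNAi. In wild type ugt-26 read 628, 413 and 425 on spg-7 RNAi and 750.5, 730.1 and 639.9 on control RNAi. The 3 mutant control arrays were the highest of the 12, 2.03-fold above those of wild type, a difference that was not called (adjusted p = 0.434). Within the mutant ugt-26 fell 4.34-fold on spg-7 RNAi (log2 -2.12 ± 0.27; limma adjusted p = 0.00236), and the wild-type difference was -0.56 (adjusted p = 0.278).

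Mutant signals of ugt-31 were 182, 163 and 118 on spg-7 RNAi and 746, 704 and 454 on control RNAi. In wild type ugt-31 read 181, 134 and 96.5 on spg-7 RNAi and 241, 271 and 292 on control RNAi. As for ugt-26, the mutant control arrays were the highest and overlapped no other group. Within the mutant ugt-31 fell 4.09-fold (log2 -2.03 ± 0.32; limma adjusted p = 0.00817), a call lost without control RNAi replicate 1 (0.0605) or 2 (0.0512). In wild type its difference was -1.01 (adjusted p = 0.0969).

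The second comparison asked whether the response differed between genotypes. No member passed this test. By limma 0 of the 45 members and 0 of 10385 genes (0%) were called. At an unadjusted p under 0.05 there were 8 members, ugt-19, ugt-2, ugt-62, ugt-61, ugt-28, ugt-29, ugt-26 and ugt-31, all with a lower value in the mutant. Among all genes 2.13% were lower and 4.10% higher by that rule.

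For 6 of the 8 members that rose in both genotypes the estimated rise was smaller in the mutant. The share of all genes that did so is not given here. Among genes called higher in both genotypes in the other pathway lists below, gst-39 and cyp-13A5 rose more in the mutant. The others rose less there, such as cyp-33C8, by log2 3.73 in the mutant and 5.72 in wild type. A smaller rise in the mutant was thus not particular to the ugt genes. The differences between responses, mutant minus wild type on the log2 scale, were -1.43 for ugt-61 (95% interval -2.38 to -0.48), -1.42 for ugt-19 (-2.19 to -0.64), -1.28 for ugt-62 (-2.03 to -0.52) and -1.23 for ugt-2 (-1.98 to -0.48). For ugt-19 and ugt-62 the larger part lay on control RNAi (1.07 and 0.76, beside -0.35 and -0.51 on spg-7 RNAi). For ugt-61 and ugt-2 it lay on spg-7 RNAi (-1.14 and -0.91, beside 0.29 and 0.32 on control RNAi). The differences of ugt-50 (-0.80, -1.93 to 0.33) and ugt-21 (-0.74, -1.49 to 0.0049) had intervals that include 0. For ugt-16 the difference was 0.56 (-0.43 to 1.56). That of ugt-1 was 0.065 (-0.62 to 0.75), and -0.038 with arrays centred on their median. The adjusted p of these 8 ran from 0.573 to 0.984. With array weights, whose estimate did not converge, ugt-19, ugt-2, ugt-62 and ugt-61 were called (adjusted p of 0.0236 to 0.0438), among 0.924% of all genes.

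**Figure D3:**
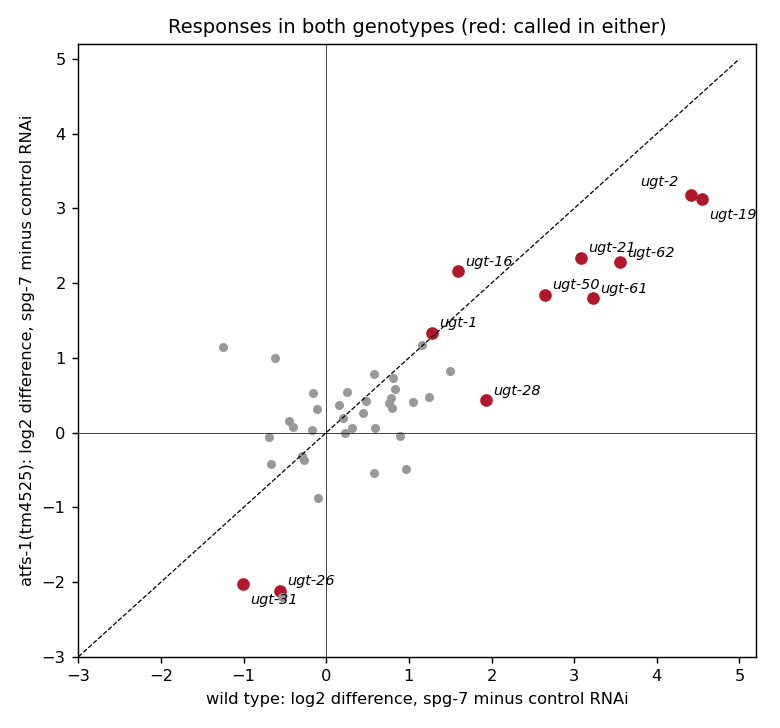
Log2 difference of spg-7 RNAi minus control RNAi in the atfs-1(tm4525) mutant (vertical) against that in wild type (horizontal) for the 45 tested ugt genes, with those called in either genotype in red and named and a dashed line where both are equal. Of the 8 genes called higher in both, 6 lie below the line and ugt-16 and ugt-1 on or above it.

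The genotypes were also compared on each RNAi. On spg-7 RNAi no member was called by limma (12 at an unadjusted p under 0.05), against 0.0963% of all genes (0.00963% higher and 0.0867% lower). Of the 12, 4 were higher and 8 lower in the mutant, where 11.2% and 4.24% of all genes were at an unadjusted p under 0.05. The 3 mutant arrays stood below the 3 wild-type ones for 11 members and above them for 7, where 7.29% and 15.7% of all genes did so. The 7 are 15.6% of the 45, near the background, and the 11 are 24.4%. Of these 18, ugt-43 had the largest difference: 549, 612 and 817 in the mutant and 71.2, 183 and 143 in wild type (log2 2.40 ± 0.69; adjusted p = 0.168). For ugt-9 the signals were 71.9, 109 and 64.6 in the mutant, around the filter level, and 354, 237 and 149 in wild type (log2 -1.54; adjusted p = 0.196). For ugt-41 they were 277, 249.98 and 215 in the mutant and 548, 972 and 503 in wild type (log2 -1.39; adjusted p = 0.183). Without wild-type control RNAi replicate 1, which enters this comparison through the variance, ugt-43 (adjusted p = 0.0128) and ugt-61 (0.0483) were called, among 5.65% of all genes. Without wild-type control RNAi replicate 1 and spg-7 RNAi replicate 3, ugt-43 was called (0.0214), among 2.31% of all genes. Neither count of members stands above that background.

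On control RNAi no member and no gene was called by limma (0%; 7 members at an unadjusted p under 0.05). Of the 7, 6 were higher and 1 lower in the mutant, and all genes leaned the same way, 8.47% higher and 2.24% lower. For 8 members (17.8%) the 3 mutant arrays all stood above the wild-type ones and for none below, against 11.8% and 5.79% of all genes. The gene ugt-43 again differed most, with 803, 647 and 1148 in the mutant and 36.3, 320.1 and 283 in wild type (log2 2.50; adjusted p = 0.434). Its lowest value came from the wild-type control array with the low yolk protein signals. Mutant arrays of ugt-29 read 492, 513 and 703 and wild-type ones 129, 218 and 191 (log2 1.68 ± 0.27; adjusted p = 0.190). For ugt-31 the difference was 1.21 (adjusted p = 0.429), for ugt-19 1.07 (0.368) and for ugt-62 0.76 (0.434). These control arrays are the same ones that enter the responses.

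Medians of germ-line and yolk markers between the genotypes also lay away from 0, and no gene of these lists was called. The median log2 difference of 5 yolk protein genes, mutant minus wild type, was -0.82 on spg-7 RNAi and 2.11 on control RNAi, and -3.19 between the responses. For 10 oocyte and embryo markers the medians were -1.03, 0.51 and -1.43 in the same order, and for 23 sperm markers 1.01, 1.03 and 0.0079. On wild-type control RNAi replicate 1 the median log2 signal of the yolk genes was 6.46, beside 14.48 and 13.96 on replicates 2 and 3. The mutant control arrays had 13.81, 13.77 and 13.94. For the sperm markers that wild-type array had 11.52, beside 14.26 and 14.41, and the mutant control arrays 14.74, 14.43 and 14.12. The yolk values of 2.11 and -3.19 and the sperm value of 1.03 thus rest largely on 1 array. The oocyte and embryo markers were low on arrays of several groups. Their summed signal was 4120 on wild-type control RNAi replicate 1, 3346 on wild-type spg-7 RNAi replicate 1 and 3144 on mutant spg-7 RNAi replicate 2. The other arrays had 10330.5 to 71953. The part of these markers in the genotype differences of the ugt genes was not tested.

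The other 34 tested members were called in neither genotype. Their log2 differences had a median of 0.29 in the mutant and 0.28 in wild type, and 22 lay within 0.5 of 0 in the mutant and 15 in wild type. Closest to the threshold in wild type, and chosen after their values were seen, were ugt-12 (log2 1.24; limma adjusted p = 0.0519), ugt-20 (1.05; 0.0595) and ugt-41 (2.83-fold; 0.0637). The spg-7 RNAi arrays of wild type stood above the control arrays for these 3, as they did for ugt-24 and ugt-29. Without wild-type control RNAi replicate 1 and spg-7 RNAi replicate 3, more members were called in wild type. They were ugt-12 (0.00818), ugt-20 (0.0253), ugt-41 (0.0488), ugt-25 (0.0171) and ugt-13 (0.0436), among the 11.8% of all genes given above.

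The lowest mutant value of the 34 was that of ugt-63, at 41.9, 28.7 and 112 on spg-7 RNAi and 179.8, 179 and 409 on control RNAi (log2 -2.20 ± 0.66; limma adjusted p = 0.219). When the mutant was fitted on its own with the replicate number as a block, ugt-63 (adjusted p = 0.00286) and ugt-25 (log2 1.17, 0.0217) were called as well, among 11.3% of all genes. The probe sets of ugt-22 and ugt-47, with that of ugt-62 the brightest of the family by mean log2 signal, were called in no comparison. For ugt-22 the group means were 3029 ± 726 and 2935 ± 554 in the mutant on spg-7 and control RNAi, and 2579.9 ± 516 and 2914 ± 639.8 in wild type (SD, n = 3 each). For ugt-47 they were 1952 ± 257 and 1741 ± 541 in the mutant and 1476 ± 433 and 1476 ± 859 in wild type. Both genes thus kept group means within 1 SD of each other between the RNAi treatments. Signals of different probe sets do not rank their transcripts.

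Over all 45 tested members the median SD of log2 signal between replicates was 0.32 and 0.37 in the mutant on spg-7 and control RNAi, and 0.46 and 0.44 in wild type. The widest spread was that of ugt-57 in wild type on control RNAi, an SD of 1.99. The median log2 signal of the 45 was 8.67, 8.64 and 8.31 in the mutant on spg-7 RNAi and 8.15, 8.10 and 8.30 on control RNAi. Wild-type medians were 9.01, 8.68 and 8.50 on spg-7 RNAi and 7.97, 7.82 and 7.88 on control RNAi. Every spg-7 RNAi array stood above every control array of its genotype.

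Many ugt genes lie beside each other, and members of a run did not all respond alike. In the RefSeq order of protein-coding genes (WBcel235), used here for neighbourhood only, 35 of the 64 members formed 11 runs with at most 2 other genes between 1 member and the next. Of the 23 tested members in runs 6 were called in either genotype, and of the 22 outside runs 5 were, beside 11 of all 45. Of all genes tested 1.17% were called in the mutant and 4.73% in wild type. These counts do not set members of runs apart from the others. Both ugt-1 and ugt-2, which are neighbours, rose in each genotype, by log2 1.34 and 3.18 in the mutant and 1.27 and 4.41 in wild type. Beside ugt-19, with 3.13 in the mutant and 4.54 in wild type, its neighbour ugt-20 stood at 0.41 and 1.05 and was called in neither.

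Other runs held values on both sides of 0. In the run of ugt-26, ugt-27, ugt-28 and ugt-25, the mutant differences of the tested genes were -2.12 for ugt-26, 0.43 for ugt-28 and 1.17 for ugt-25, and the wild-type ones -0.56, 1.93 and 1.16 in the same order. In the run of ugt-18, ugt-16 and ugt-15 the mutant differences were 0.33, 2.16 and -0.059 and the wild-type ones 0.79, 1.60 and -0.69, and ugt-16 was the one called. The run of 8 from ugt-12 to ugt-13 had no called member, with wild-type differences of -0.62 to 1.24 over 5 tested genes. None of the 11 called members was measured through a probe set with the suffix s. Whether probe sets of neighbours bind each other's transcripts was not tested.

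**Figure D4:**
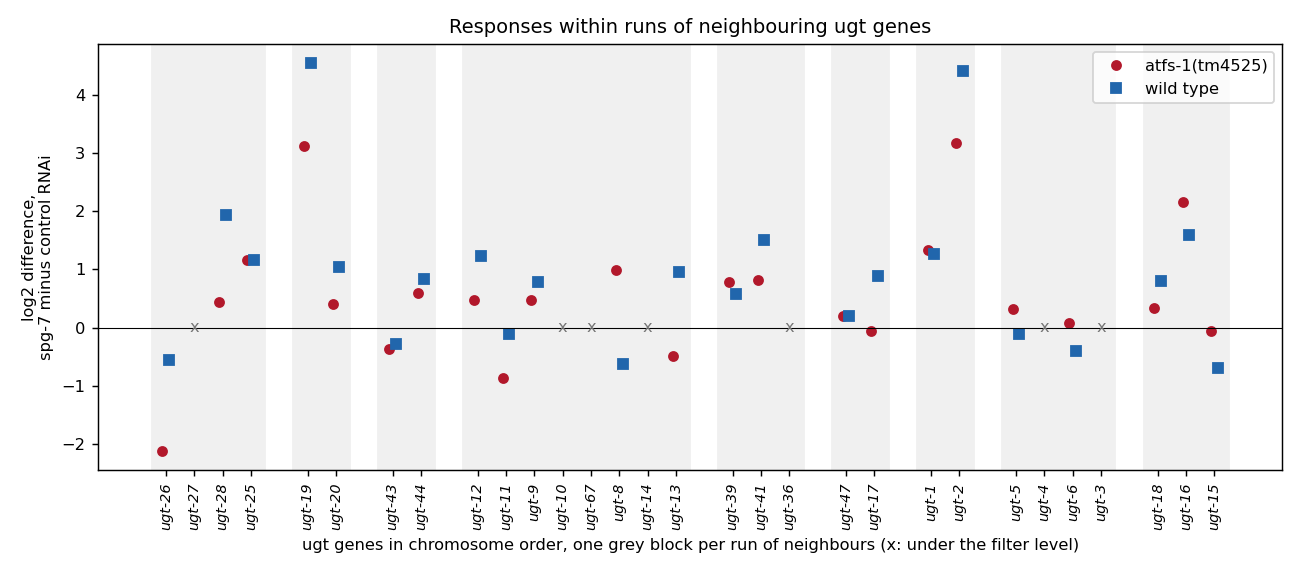
Log2 difference of spg-7 RNAi minus control RNAi (vertical) for ugt genes in chromosome order (horizontal), with a grey block for each run of neighbours that has a tested member, red circles for the atfs-1(tm4525) mutant, blue squares for wild type and x for genes under the filter level. Of the runs shown, the pair ugt-1 and ugt-2 is the one with every member called, and the run of ugt-26 to ugt-25 spans values below and above 0.

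The other genes of the pathway were taken from lists of names. Of all genes tested 0.944% rose and 0.221% fell in the mutant, and 3.29% and 1.43% in wild type. A list drawn up for the supply of UDP-sugars, the donors of the reaction, had 7 tested genes of 10 listed. It also held rpe-1 and tald-1, which do not make UDP-sugars, so its values may not be those of donor supply alone. None of the 7 was called in either genotype, and their median log2 difference was 0.21 in the mutant and 0.20 in wild type. Of 17 tested ABC transporters of the mrp and pgp families 1 rose and 1 fell in each genotype. The P-glycoprotein gene pgp-9 rose 5.74-fold in the mutant (3152 ± 888 on spg-7 RNAi and 542 ± 106 on control RNAi, SD, n = 3 each; limma adjusted p = 0.00981) and 10.5-fold in wild type (3935 ± 1984 and 337 ± 58.8; limma adjusted p = 6.7e-04). The falls were those of pgp-5 in the mutant (log2 -2.27, adjusted p = 0.0138) and mrp-6 in wild type (log2 -1.11, adjusted p = 0.0470).

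Of 26 tested conjugating enzymes other than the ugt genes, glutathione S-transferases and the sulfotransferase gene ssu-1, 4 rose in the mutant and 5 in wild type, and none fell. The gene gst-7 rose 3.57-fold in the mutant and 4.07-fold in wild type, and gst-39 5.28-fold and 3.23-fold. Not all calls were shared. Among those in wild type alone was gst-4 (log2 1.51; limma adjusted p = 0.0238). Its mutant signals were 969 ± 140 on spg-7 RNAi and 887 ± 247 on control RNAi (SD, n = 3 each). In the mutant alone gst-38 was called (log2 1.84; limma adjusted p = 0.0458). Of 41 cytochrome P450 genes 7 rose and none fell in the mutant, and 10 rose and 2 fell in wild type. The shares of all genes that rose and fell were 0.944% and 0.221% in the mutant, and 3.29% and 1.43% in wild type. Of 13 regulators of detoxification and stress none was called in the mutant and 2 rose in wild type. They were nhr-8, a nuclear hormone receptor gene known for xenobiotic resistance (log2 1.71, adjusted p = 0.0238), and atfs-1 itself (log2 0.99, adjusted p = 0.0469). The signal of nhr-8 was 584 ± 149 and 306 ± 55.0 in the mutant on spg-7 and control RNAi, and 822 ± 354 and 234 ± 40.6 in wild type (SD, n = 3 each).

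The intestine is a tissue in which many detoxification genes of the worm are expressed. Of 10 tested intestinal markers ftn-1 rose in the mutant and ftn-1 and ges-1 rose in wild type, and the median log2 difference of the 10 was 0.56 in the mutant and 0.54 in wild type. Their summed signal was 58565 to 92643 in the mutant on spg-7 RNAi and 41207 to 66092 on control RNAi, and 44214 to 95091 in wild type on spg-7 RNAi and 43233 to 64243 on control RNAi. Wild-type spg-7 RNAi replicate 3 had the lowest intestinal sum of its group (44214), within the range of the control arrays. On that array ugt-62, ugt-61, ugt-50, ugt-16 and ugt-1 were also the lowest of their group. Of the other members called in wild type, ugt-2, ugt-21 and ugt-28 stood in the middle and ugt-19 was the highest. None of the 10 intestinal markers was under the filter level on any array. The part of these markers in the responses was not tested.

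Among 6 epidermal markers the median log2 difference was 0.37 in the mutant and -0.64 in wild type, and none was called. Of the markers of oocytes and embryos (10), sperm (23), yolk (5) and body wall muscle (6) none was called. Their median log2 differences were -1.16, -0.069, -1.19 and 0.015 in the mutant, and 0.30, -0.066, 1.95 and -0.71 in wild type, in that order. The wild-type sperm and yolk values include control RNAi replicate 1, which was low in both lists. The oocyte and embryo values of both genotypes include the low arrays of that list named above. Of 8 neuronal markers snb-1 rose in wild type (log2 0.84; limma adjusted p = 0.0492). The actin control probe sets for the 3′ and 5′ ends, whose ratio serves as a measure of RNA integrity, also differed: the log2 ratio was 0.54 to 0.69 on spg-7 RNAi and 0.41 to 0.48 on control RNAi in the mutant, and 0.82 to 0.85 and 0.43 to 0.62 in wild type. The part of these markers and of this ratio in the responses was not tested.

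The 19 members under the filter level were ugt-3, ugt-4, ugt-7, ugt-10, ugt-14, ugt-27, ugt-30, ugt-35, ugt-36, ugt-37, ugt-38, ugt-40, ugt-42, ugt-52, ugt-54, ugt-55, ugt-56, ugt-59 and ugt-67. Their mean signals ran from 8.62 to 74.0, and the largest single value was 244, that of ugt-36. In the fit of all 17118 genes, ugt-36 was called higher on spg-7 RNAi in both genotypes and the other 18 were not called in either response. At such signals a low value does not show that a gene was silent.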

How the data were processed

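Whole-worm RNA of 12 samples was hybridised to Affymetrix C. elegans arrays. The values are probe-set signal intensities, linear, deposited by the authors; MAS5 is named in the submitters' processing notes without a version, and its settings are not given in the sources used here. A common 2% trimmed mean was read from the values. Of 22625 probe sets 77 were controls; of the other 22548 the platform annotation gave 1 gene for 20766, several for 887 and none for 895. Signals were floored at 1 (0.509% of values) and taken to log2; the lowest 40% of probe sets by mean log2 were left out, a level of 6.25, and the brightest single-gene probe set stood for each gene.

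One mean per group was fitted with limma 3.58.1 (R 4.3.3) with moderated variances and a trend, 11.7 degrees of freedom, for 5 comparisons. The threshold was a Benjamini-Hochberg adjusted p under 0.05 over the 10385 genes, and intervals are at 95%. P-values measure the spread between samples labelled as biological replicates. Named are members called in any comparison, the 3 largest non-overlapping differences in each comparison of 2 groups and the 3 brightest by mean log2; of the other lists called genes, at most 4. Members and lists were chosen with earlier results of these data known. Replicate numbers were shared between groups. Deviations of same-numbered arrays correlated at 0.29 to 0.53 between the mutant groups and at -0.10 to 0.58 between the wild-type groups. Between groups of different genotype they correlated at -0.66 to 0.66. The numbers were read as pairs in the mutant only, a reading that these values do not settle. The model has no pairing, and fits with the number as a block were run as alternatives in both genotypes. The fitting was tested on simulated data. Alternatives were other scalings, filters, probe sets and models and leaving out arrays. Sequences are not used here. Plots used matplotlib 3.10.9 and Python 3.11.15.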

Additional observations from a re-analysis of the deposited data

Results flagged for a closer look

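The arrays of ugt-29 separated without overlap in opposite directions in the genotypes, and neither response was called (log2 -0.54, limma adjusted p = 0.555 in the mutant, and 0.57, 0.257 in wild type, both 95% intervals including 0). In the mutant its signals were 397, 395 and 364 on spg-7 RNAi and 492, 513 and 703 on control RNAi, and in wild type 241, 298 and 246 on spg-7 RNAi and 129, 218 and 191 on control RNAi. The difference between the responses, mutant minus wild type, was -1.12 (95% interval -1.94 to -0.29; limma adjusted p = 0.714). Its probe set is marked s. Of all genes tested 12.7% stood lower without overlap in the mutant and 9.99% higher in wild type. The share of all genes that did both is not given here, so the pattern of ugt-29 has no background to be set against.

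The gene ugt-36 lay under the filter level and so outside the main comparisons. In the mutant its signals were 98.1, 244 and 52.2 on spg-7 RNAi and 7.73, 4.78 and 1.89 on control RNAi, and in wild type 134, 180.3 and 129 on spg-7 RNAi and 30.5, 2.01 and 3.64 on control RNAi. With no filter the log2 difference was 4.71 in the mutant (limma adjusted p = 0.0432) and 4.59 in wild type (0.0225). The size of these differences rests on control signals far under the filter level. Its neighbour in the run, ugt-41, stood 1.76-fold and 2.83-fold higher on spg-7 RNAi in the mutant and wild type and was called in neither.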

How the results depend on the processing

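With array weights, whose estimate did not converge, the counts of called members were 18 in the mutant, 15 in wild type, 4 for the difference between responses and 11 and 7 for mutant against wild type on spg-7 and control RNAi, beside 10, 9, 0, 0 and 0, and the shares of all genes called were 14.8%, 17.2%, 0.924% and 6.84% in the same order, with 519 of 10385 genes for the last comparison. Without wild-type control RNAi replicate 1 and spg-7 RNAi replicate 3 together, an alternative added after the data had been seen, they were 14 in wild type and 1 (ugt-43) for the genotypes on spg-7 RNAi. The shares of all genes called were then 11.8% and 2.31%. Without 1 array the counts ran from 7 to 10 in the mutant, from 7 to 13 in wild type and from 0 to 2 for the genotypes on spg-7 RNAi, and were 0 for the other 2. The shares of all genes ran from 0.424% to 1.86%, from 2.14% to 10% and from 0% to 5.65% in the same order. Under the other alternatives the counts were 9 to 12 in the mutant and 6 to 12 in wild type, and 0 for the other 3. There the shares of all genes were 0.683% to 11.3% in the mutant and 0.809% to 6.07% in wild type. The replicate block over all arrays gave 10 in both genotypes, and within the groups of a comparison 12 in the mutant, with ugt-25 and ugt-63 added, among 11.3% of all genes, and 6 in wild type, among 1.16%, where ugt-28, ugt-16 and ugt-1 were also lost without the block; it changed no other call of a named gene than that of ugt-12 in wild type (adjusted p = 0.0462). The difference of ugt-1 between responses reversed with arrays centred on their median (-0.038) and without mutant control RNAi replicate 3 (-0.083); without 1 array it ran from that value to 0.14. That centring moved the median of all genes to 0.080 in wild type, against -0.044, and to -0.22 for the genotypes on spg-7 RNAi, against 0.0048. The causes were not tested. With 32 added before log2 no call of the 11 genes was lost.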
